A study of Mus musculus with 10 samples.

Results

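The circular RNAs described here were those of the perinatal mouse retina that were listed at 0 once the retina matured. A circRNA was a member when its estimated count was above 0 in at least 2 of the 4 libraries from embryonic day E18.5 and postnatal day P1, and was 0 in all 4 libraries from P14 and P30. The deposited table listed 9029 circRNAs, and 148 of them met this rule. They were 16.6% of the 893 circRNAs above 0 in at least 2 perinatal libraries, and the other 745 of those 893 serve as the comparison below. The members were chosen by their counts at E18.5, P1, P14 and P30, so these counts, and any comparison that includes them, are a description and support nothing. The counts at P7 played no part in the choice and show at which age each circRNA was last listed.

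A circRNA forms when the spliceosome joins a splice donor to an acceptor that lies upstream of it, a reaction called back-splicing, and the closed molecule has neither a cap nor a poly(A) tail. Without free ends it resists exonucleases, and circRNAs as a class are known to build up in neural tissue as neurons mature. In the mouse retina, progenitor cells still divide around birth, rod photoreceptors and the last interneurons are born in the first postnatal days, and synapses and photoreceptor outer segments mature after that.

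Retinas of C57BL/6 mice were collected before birth at E18.5 and after birth at P1, P7, P14 and P30, and no treatment or genotype other than this strain is given. Total RNA depleted of ribosomal RNA was sequenced, and each age is represented by 2 libraries. The labels do not say which animals, or how many, each library came from, so the spread between libraries may be technical. The 1 E18.5 column whose number appears on no E18.5 label was used as an E18.5 library without a replicate number.

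The summed circRNA counts were 6606.5 and 7127 at E18.5, 9092 and 8601.5 at P1, 9611 and 7426 at P7, with 11773.5 and 17048 at P14, and 28104.5 and 28658 at P30. The later libraries in which the members were listed at 0 therefore held more circRNA counts than any library in which they were listed. The values were multiples of 0.5 and none lay between 0 and 2, so a 0 stands for a circRNA that was below this minimum or was not called, and no upper limit can be drawn from it. The table holds no values for linear transcripts, so the labelled tissue could not be checked against retinal markers. In whole retina, fewer cells of a type and less of a circRNA per cell cannot be told apart. Positions are those of the mouse genome build mm9 as listed in the table, and whether starts count from 0 or from 1 is not given in the sources used here. No gene was assigned to a position, because the annotation at hand was of another build.

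Most members were listed at both perinatal ages and at low counts. Of the 148, 110 were above 0 in at least 1 library of each age, 27 in P1 libraries alone and 11 in E18.5 libraries alone. Exactly 2 perinatal libraries listed 108 of them (73.0%), 3 libraries listed 29 (19.6%) and all 4 listed 11 (7.43%). Summed over the 4 perinatal libraries, the count of a member was 9 at the median, with quartiles of 6.5 and 12, a lowest value of 4.5 and a highest of 39.5. The 745 other perinatal circRNAs had a median of 15.5 and a highest value of 2286.5. Members were 27.9% of the circRNAs listed in exactly 2 perinatal libraries, 12.0% of those listed in 3 and 4.17% of those listed in all 4. The share of circRNAs that were members was thus highest among those listed least often. Of the members, 62 had a summed perinatal count of at least 10 and 11 had one of at least 20. The number of members depended on which libraries the rule could use: without P1 replicate 1 the rule found 87 and without P1 replicate 2 it found 85.

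Members took a larger share of the circRNA counts at E18.5 and P1, which the rule used, than at P7, which it did not. They summed to 388 and 347 counts at E18.5, 426 and 390.5 at P1, and 160.5 and 118 at P7. Relative to the library totals, this was 5.87% and 4.87% at E18.5, 4.69% and 4.54% at P1, and 1.67% and 1.59% at P7, with means of 5.37% ± 0.71, 4.61% ± 0.103 and 1.63% ± 0.0572 (SD, n = 2). Both P7 libraries lay below all 4 perinatal libraries. The mean share at E18.5 was 3.30 times, and at P1 2.83 times, that at P7. Since members had to be above 0 in perinatal libraries, a lower P7 share is in part built into the choice, and no test of it is given.

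**Figure D1:**
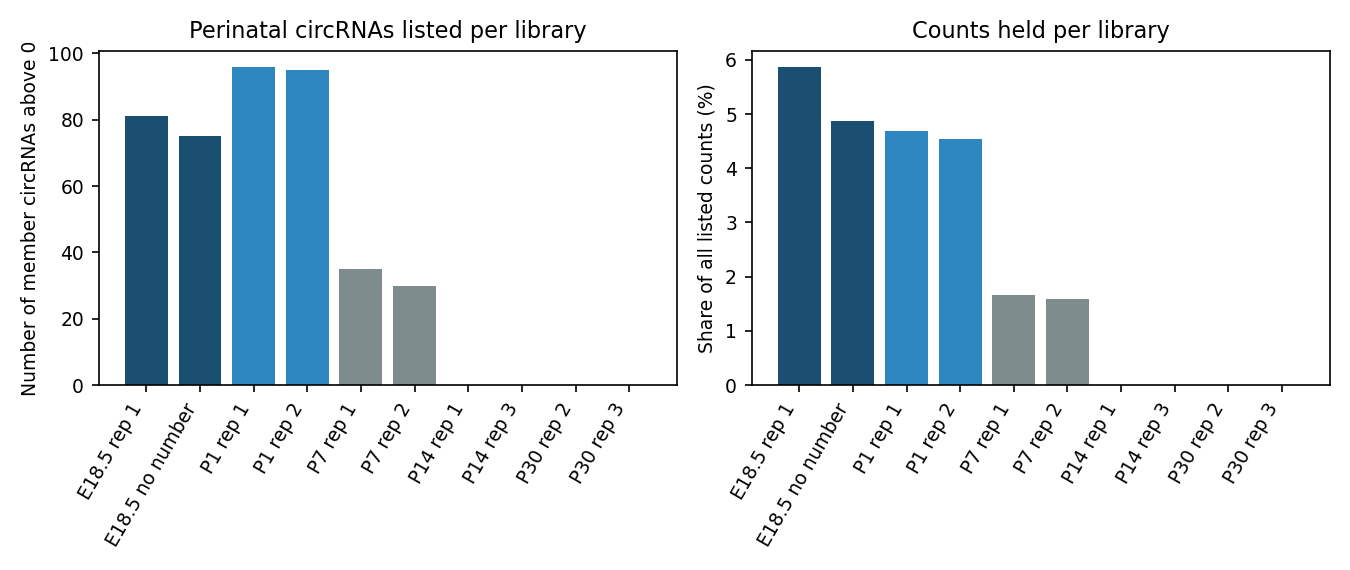
The 148 members in each of the 10 libraries, as the number above 0 and as their percent of all circRNA counts. Each library is shown on its own. The perinatal libraries lie between 4.54% and 5.87%, the P7 libraries at 1.67% and 1.59%, and the P14 and P30 libraries at 0 by the rule.

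Fewer members were listed at P7 than at the perinatal ages. The rule required a listing in at least 2 of the 4 perinatal libraries and asked nothing of P7, so this order is in part built in. The E18.5 libraries listed 81 and 75 of the 148, the P1 libraries 96 and 95, and the P7 libraries 35 and 30. By member, 97 (65.5%) were at 0 in both P7 libraries, 37 (25.0%) were above 0 in one of them and 14 (9.46%) in both. Had each member kept its perinatal share, its summed count over both P7 libraries would have been 4.88 at the median. The lower quartile would have been 3.52. These are upper values, since members were chosen for being listed. The lowest value listed above 0 in a library was 2, so a 0 at P7 does not show that a circRNA was lost. A member was therefore above 0 in at least 1 P7 library in 51 of 148 cases (34.5%), against 578 of the 745 other perinatal circRNAs (77.6%). Without P1 replicate 1, without P1 replicate 2 or without P7 replicate 1, the count of 51 was 30 in each case.

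At matched perinatal counts, this contrast was seen in 3 of the 5 ranges that held members. Among circRNAs with a summed perinatal count of at least 4 and under 10, 23 of 86 members (26.7%) and 115 of 210 others (54.8%) were above 0 at P7. In the range from 10 to under 15, these numbers were 12 of 39 (30.8%) and 100 of 143 (69.9%). Between 15 and 20 the shares were close, at 10 of 12 members (83.3%) and 77 of 91 others (84.6%). From 20 to under 30 they were 4 of 9 (44.4%) and 96 of 109 (88.1%). From 30 to under 50, both of the 2 members and 88 of 90 others (97.8%) were listed at P7, and no member reached 50. Matching on the number of perinatal libraries gave lower shares for members in each class, with 33 of 108 members (30.6%) against 162 of 279 others (58.1%) for 2 libraries, 11 of 29 (37.9%) against 174 of 213 (81.7%) for 3, and 7 of 11 (63.6%) against 242 of 253 (95.7%) for 4. The members were chosen for being at 0 in the 4 libraries that follow P7, and no test was made of these shares.

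Members listed at E18.5 and not at P1 were few, and nearly all of them were at 0 at P7. Of the 11 members listed at E18.5 and not at P1, 1 was above 0 at P7, against 10 of the 27 listed at P1 and not at E18.5 (37.0%) and 40 of the 110 listed at both ages (36.4%). The 1 E18.5 member seen again was chr10:116803136-116805044 (minus strand), with 7 and 5.5 counts at E18.5, 0 in both P1 libraries, and 0 and 4 at P7. The highest of the P1 group was chr10:20868137-20876263 (minus strand), with 14 and 6 counts at P1 and 10.5 and 0 at P7.

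To ask how repeatable such a listing is, the rule was applied with 1 library held out at a time. The circRNAs counted were those that the other libraries used by the rule would make members. Of these, the held-out E18.5 library listed 32 of 99 (32.3%) and 32 of 105 (30.5%), and the held-out P1 library 35 of 87 (40.2%) and 32 of 85 (37.6%). For a held-out P14 library, the numbers were 15 of 163 (9.20%) and 30 of 178 (16.9%), and for a held-out P30 library 25 of 173 (14.5%) and 34 of 182 (18.7%). The P7 libraries, which the rule never uses, listed 23.6% and 20.3%. The circRNAs differ from one library held out to the next, and a held-out perinatal or later library is read on circRNAs chosen in part by the other library of its age, which P7 is not, so the order of the ages is in part built in. A large part of the low counts nevertheless did not recur, since no perinatal library left out listed more than 40.2% of the circRNAs chosen without it. Some of these could be chosen by the other perinatal age alone, so poor repeatability and a difference between ages cannot be told apart here. Over all 893 perinatal circRNAs, or those the other libraries would place among them, the same libraries listed between 54.5% and 71.8%, and the P30 libraries, at 66.7% and 66.1%, lay above the E18.5 libraries, at 56.2% and 57.9%.

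**Figure D2:**
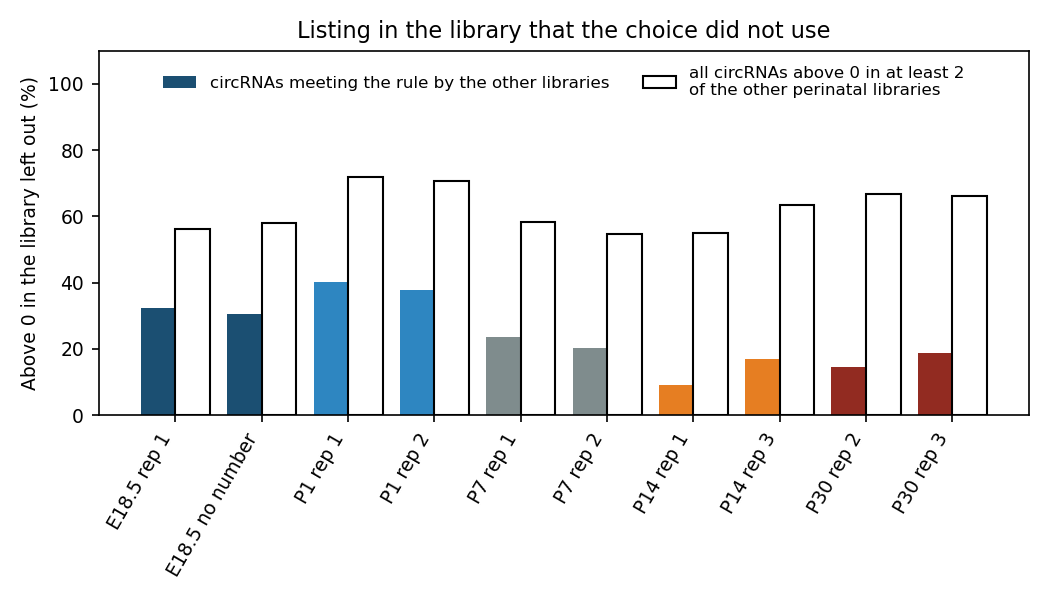
Percent of the circRNAs that met the rule in the remaining libraries and were above 0 in the library held out, beside the same percent over all circRNAs that were perinatal by the remaining libraries. Bars with a filled colour, set by age, are the circRNAs that met the rule in the remaining libraries and run from 9.20% to 40.2%. Those above 0 in a held-out P14 or P30 library are not members. The P7 libraries need no holding out.

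A choice made from E18.5 and P30 alone leaves the 3 ages between free. In total 52 circRNAs were above 0 in both E18.5 libraries and at 0 in both P30 libraries, and 35 of them were members. At least 1 P1 library listed 39 of the 52 (75%), at least 1 P7 library 24 (46.2%) and at least 1 P14 library 17 (32.7%). Among all 378 circRNAs above 0 in both E18.5 libraries, these shares were 91.3%, 84.7% and 82.5%. The 52 were listed less often at each successive age between E18.5 and P30, and so were the 378. The 52 were chosen to be listed at E18.5 and at 0 at P30, so this order is in part built in. The mirror choice, from P1 and P14 alone, gave 105 circRNAs, 54 of them members. Of these, 60 were listed at E18.5 (57.1%), 57 at P7 (54.3%) and 51 at P30 (48.6%), against 77.1%, 81.3% and 84.6% of all 551 circRNAs above 0 in both P1 libraries. A count of 0 in both P14 libraries was therefore followed by a listing at P30, the age with the most counts, in 51 of 105 cases.

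The member with the highest mean perinatal level was chr6:47501730-47527666 (minus strand), at 1238 CPM, counts per 1000000 listed circRNA counts of a library, averaged over the 4 perinatal libraries. It had 4 and 11 counts at E18.5, 7 and 17.5 at P1, and 7.5 and 0 at P7. Its P1 and E18.5 libraries overlapped, and 1 of the P7 libraries lay within their range. A circRNA that has the same listed start and ends at 47508293 was listed in 3 libraries, with 11.5 and 8.5 counts at P1 and 4 in P30 replicate 2. Another that has the same listed end and starts at 47506028 had 4 counts in P1 replicate 2 and 0 elsewhere. All 3 circles were listed at P1, and the one at P30 was not the member.

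Next in order were circRNAs that the table lists by a database identifier with no position. The circRNA mmu_circ_0000448, at 1027 CPM, had 16.5 and 6.5 counts at E18.5, 0 and 6 at P1, and 0 in both P7 libraries. Its count of 16.5 in E18.5 replicate 1 was the highest of any member in that library. The circRNA mmu_circ_0000362, at 1015 CPM, had 4 and 13 counts at E18.5, 9 and 5.5 at P1, and 8.5 and 0 at P7. The circRNA mmu_circ_0000498, at 878 CPM, had 10.5 and 8.5 counts at E18.5, 4 and 2.5 at P1, and 4 and 7.5 at P7. Its E18.5 libraries lay above its P1 libraries with no overlap, and both P7 libraries lay between or level with the perinatal values. In mmu_circ_0000847 the counts were 6.5 and 5 at E18.5, 13.5 and 0 at P1, and 2.5 and 0 at P7. In mmu_circ_0000943 they were 13 and 5.5 at E18.5, 2.5 and 0 at P1, and 0 at P7, so that E18.5 lay above P1 and P1 at or above P7.

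Several members of high perinatal level were already at 0 in both P7 libraries. The circRNA chr8:107702492-107726447 (plus strand) had 5 and 6 counts at E18.5 and 10 and 4.5 at P1. The table also lists chr8:107702492-107726478, which shares the start and ends 31 bases away, with 11 and 12 counts at E18.5, 20 and 10 at P1, 0 and 5 at P7, 0 at P14 and 0 and 4 at P30. The circle with the end 31 bases away had the higher count in each perinatal library and was still listed at P7 and P30. On chromosome 2, chr2:118902671-118907361 (plus strand) had 7 and 0 counts at E18.5 and 8 and 9 at P1. The circRNA chr9:61767418-61772950 (minus strand) had 4 and 5 counts at E18.5 and 8 and 3.5 at P1. For chr8:8639205-8641256 (minus strand), the counts were 4.5 and 7.5 at E18.5 and 7.5 and 0 at P1. Its listed start is shared by chr8:8639205-8639489, which had 5.5 and 0 counts at P1, 6 and 8.5 at P7, and 0 in the other libraries. At that start, the wider circle was listed at E18.5 and P1 and the narrower one at P1 and P7.

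**Figure D3:**
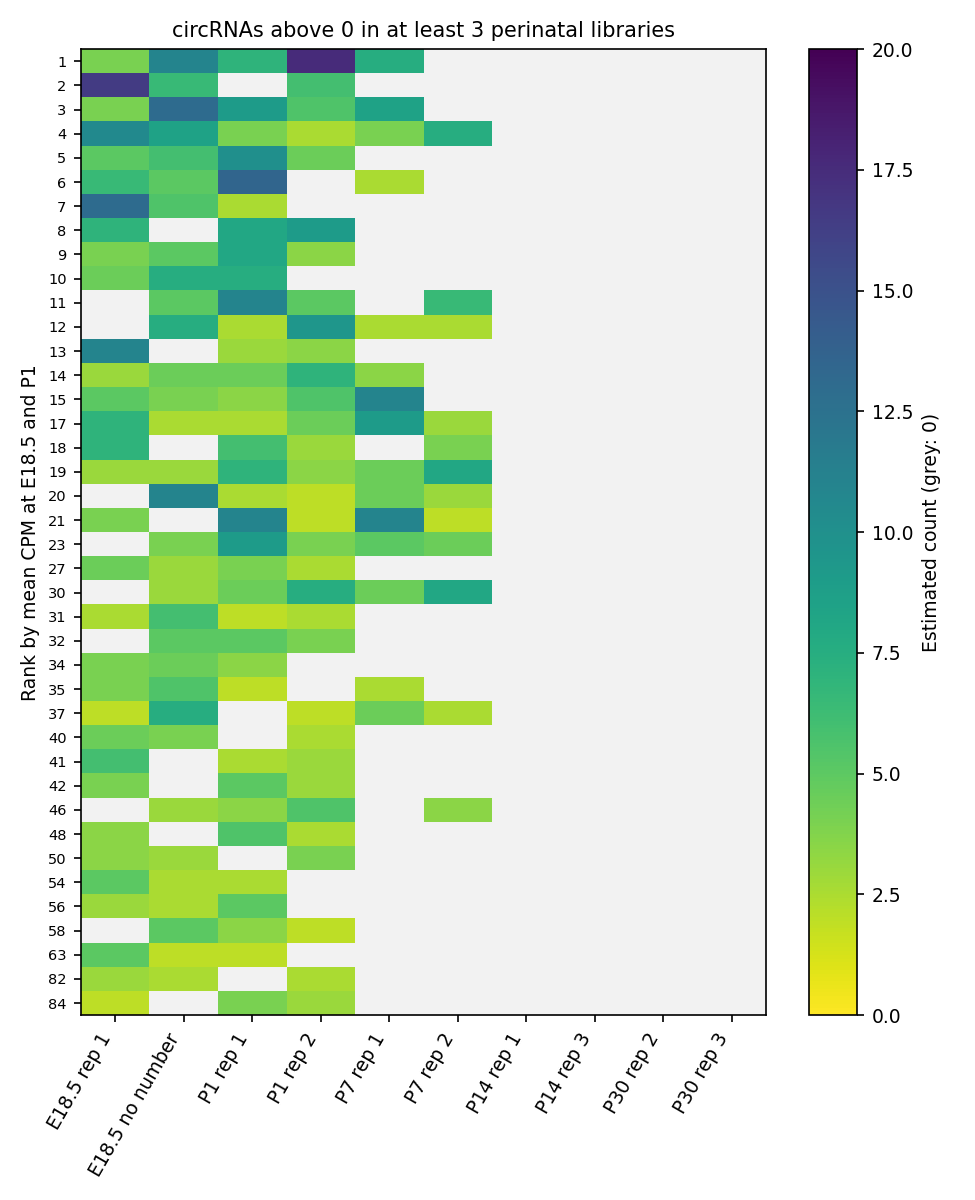
Estimated counts of the 40 members that were above 0 in at least 3 perinatal libraries, by library, in order of mean perinatal CPM. Grey cells are 0. The columns of P14 and P30 are grey throughout by the rule, and 18 of the 40 have a coloured cell at P7.

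The 11 members above 0 in all 4 perinatal libraries rest least on a single library. They include the top circRNA of chromosome 6, mmu_circ_0000362, mmu_circ_0000498, chr8:107702492-107726447 and chr9:61767418-61772950, whose counts are given above. Further down the order, chr5:108617950-108626989 (plus strand) had 5 and 4 counts at E18.5, 3.5 and 5.5 at P1, and 11 and 0 at P7. The circRNA chr13:28940157-28940683 (plus strand) had 7 and 2.5 counts at E18.5, 2.5 and 4.5 at P1, and 9 and 3 at P7. For chr2:59839562-59844246 (minus strand) the counts were 3 and 3 at E18.5, 7 and 3.5 at P1, and 4.5 and 8 at P7. In chr5:108617950-108626989, chr13:28940157-28940683 and chr2:59839562-59844246, 1 P7 library held the highest count of any library, before scaling to library totals. The opposite pattern was that of mmu_circ_0001818, with 4.5 and 3 counts at E18.5 and 4 and 2.5 at P1, and of chr3:26032163-26041634 (minus strand), with 2.5 and 6 at E18.5 and 2 and 2.5 at P1. Both were at 0 in both P7 libraries, as were 4 of the 11 in all.

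The 14 members above 0 in both P7 libraries had levels there close to their perinatal ones. Of the 14, 9 had a mean P7 level above their mean perinatal level. The ratio of the P7 to the perinatal mean was 1.07 at the median and ran from 0.491 to 3.03, and for the 365 other perinatal circRNAs above 0 in both P7 libraries its median was 1.11. A condition of being above 0 in both libraries raises this ratio for either set. The lowest ratio was that of chr15:30564398-30577079 (plus strand), with 0 and 7.5 counts at E18.5, 2.5 and 9.5 at P1, and 2.5 and 2.5 at P7. The highest was that of chr13:76030353-76055295 (minus strand), with 0 and 4 counts at E18.5, 3.5 and 0 at P1, and 6 and 6 at P7. In the latter, both P7 libraries lay above all 4 perinatal ones.

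The highest P7 levels were reached by chr2:59839562-59844246 and chr3:9749455-9752486 (minus strand), each at a mean of 773 CPM. The circRNA chr3:9749455-9752486 had 0 and 3 counts at E18.5, 4.5 and 7.5 at P1, and 4.5 and 8 at P7, so that P1 and P7 overlapped and lay above E18.5. In chr13:102527280-102527994 (minus strand) the counts were 4 and 0 at E18.5, 11 and 2 at P1, and 11 and 2 at P7. Replicates of 1 age thus differed by more than the ages did. In chr9:61772438-61774325 (minus strand) the counts were 0 at E18.5, 3 and 7.5 at P1, and 7.5 and 2 at P7, a listing that began at P1 and ended after P7. A similar window was that of chr11:105101674-105108909 (plus strand), with 0 at E18.5, 5.5 and 8 at P1, and 3.5 and 3 at P7. Of the remaining members in both P7 libraries, chr8:8681383-8683973 (minus strand) had 0 and 4 counts at E18.5, 9 and 4 at P1, and 5 and 4.5 at P7. It was listed in 3 perinatal libraries and lay within their range at P7.

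A fit across all circRNAs reached few members, and since each of its comparisons includes an age that the rule used, its counts of members are given as a description from which nothing is read. After a filter on low counts, edgeR's quasi-likelihood test covered 327 circRNAs, of which 4 were members: chr6:47501730-47527666, mmu_circ_0000498, chr13:102527280-102527994 and chr15:30564398-30577079. Between P1 and E18.5, edgeR called 0 of the 327 at an adjusted p of 0.05 (0% called, and 8.26% at an unadjusted p of 0.05) and 0 of the 4 members. For P7 against P1 it called 4.28% of the 327 (16.5% at the unadjusted threshold) and 0 members. For P7 against E18.5 it called 8.56% (20.5% at the unadjusted threshold) and 0 members. No member passed the unadjusted threshold in any of the 3 comparisons. DESeq2 called 0 members as well. Of the 327 circRNAs, DESeq2 called 0 for P1 against E18.5, 21 for P7 against P1 and 34 for P7 against E18.5. With no filter, edgeR fitted 6365 circRNAs, all 148 members among them, and again called 0 members. Of the 6365, it called 6 for P1 against E18.5, 14 for P7 against P1 and 24 for P7 against E18.5. In the same order, 2, 3 and 5 members were under the unadjusted threshold. The share of all 6365 under that threshold was not counted.

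Counts of this size also set what an absence at P14 and P30 can mean. Had each member kept its mean perinatal share of the circRNA counts, its summed count over the 4 later libraries would have been 24.5 at the median, between 12.3 and 108. For 134 of the 148 this would have given at least 2 counts, the lowest value the table lists above 0, in each of the 4 libraries, and for all 148 it would have done so in both P30 libraries. With 5 counts as the mark, 128 members would have reached it in both P30 libraries and 30 in all 4 libraries. The perinatal mean of a circRNA chosen for being listed is too high an estimate of its level, so these are upper values. They also scale with the circRNA totals, which were highest at P30. Whether those totals rose through deeper sequencing or through more circRNA was not tested, and read depth was not used here. Members just inside the perinatal threshold had a sum of 4.5, such as chr11:78476878-78478093 (plus strand), with 2 and 2.5 counts at E18.5. Just outside it on the later side was mmu_circ_0000895, with 2 and 10.5 counts at E18.5, 6 and 3 at P1, 5 and 0 at P7, and 2 in P30 replicate 3. Likewise chr12:103180326-103186649 (minus strand) had 2.5 and 4 counts at E18.5 and 2.5 and 3.5 at P1, and was no member because of 2 counts in P14 replicate 1.

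The members carried a database identifier less often than the other perinatal circRNAs. It was given for 27 of the 148 (18.2%) and for 354 of the 745 others (47.5%). Over all 6365 circRNAs above 0 in any library, 831 (13.1%) carried one. The share of the members thus lay above that of all these circRNAs and below that of the 745. At matched perinatal counts the shares were 18.6% and 37.6% from 4 to under 10, 12.8% and 39.9% from 10 to under 15, and 8.33% and 41.8% from 15 to under 20, and in the range from 20 to under 30, with 9 members, they were 44.4% and 46.8%. Identifiers of this form are those of a public catalogue of circRNAs, and the rule did not use the identifiers.

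The 121 members with a listed position lay on 20 chromosomes, with at most 12 on 1 of them, chromosome 11. The plus strand held 60 and the minus strand 61. The genomic span between the 2 back-splice ends was 7520 bases at the median, with quartiles of 2770 and 15339, against 8444 bases for the 391 other perinatal circRNAs with a position. It was under 1 kb for 13 members, from 1 to under 10 kb for 56, from 10 to under 50 kb for 50, and at least 50 kb for 2. The median span was 7853 bases for the members listed at P7 and 7261 bases for those not listed there. The narrowest with at least 10 perinatal counts was chr13:28940157-28940683, at 526 bases. Next came chr9:64008627-64009248 (minus strand), with 621 bases and 5 and 6.5 counts at P1 alone. The widest with that many counts was chr4:8678470-8749638 (plus strand), at 71168 bases, and chr18:67705268-67747513 (minus strand) followed among these with 42245 bases and 5 and 7.5 counts at P1 alone. A span includes introns that may have been spliced out, so it is not the length of the circle.

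One gene can give several circles that share a back-splice end. Of the 121 members with a position, 68 (56.2%) had the same listed start or end, on the same strand, as another listed circRNA, against 297 of the 391 others (76.0%). A partner of this kind above 0 at P14 or P30 was found for 43 members (35.5%) and for 238 others (60.9%). At perinatal counts from 4 to under 10, these last shares were 35.7% and 55.7%, and from 10 to under 15 they were 38.2% and 58.1%. By strand, the end that is the splice acceptor was shared by 53 members (43.8%) and 248 others (63.4%), and the splice donor by 30 (24.8%) and 165 (42.2%). The rule did not use the positions, but a circRNA from a host with many listed circles has more chances of a partner, and the number of circles per host was not matched.

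For 43 members, a splice site used by the perinatal circle was thus also in a circle listed at P14 or P30. These circles formed 67 pairs of a member and a partner listed later, with 64 different partners. Of the 64, 38 were at 0 in all 4 perinatal libraries and 26 were above 0 in at least 1. In the later libraries, 9 partners were above 0 in all 4, 18 in 2 or 3, and 37 in a single one. The partner was the wider circle in 38 of the 67 pairs.

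The partners listed in all 4 later libraries show most plainly that a shared end was still held by a listed circle. Whether splicing at that end went on at P14 and P30 was not tested. The clearest case was at the start of the widest member, chr4:8678470-8749638, which had 5 and 2.5 counts at E18.5, 2.5 and 0 at P1, and 0 at P7. A circle with the same listed start, chr4:8678470-8712910, had 60 and 53 counts at E18.5, 58.5 and 61 at P1, 52.5 and 37.5 at P7, with 30.5 and 28.5 at P14, and 36.5 and 36.5 at P30. A narrower one, chr4:8678470-8680295, had 41.5 and 42.5 counts at E18.5, 25.5 and 34 at P1, 36.5 and 24.5 at P7, with 14.5 and 15 at P14, and 20.5 and 16.5 at P30. Both partners were listed in all 10 libraries at many times the count of the member. These are counts that are not scaled to the library totals, which were highest at P30. Scaled to those totals, chr4:8678470-8712910 fell from a mean of 8259 CPM at E18.5 to 2131 at P14 and 1286 at P30. For chr4:8678470-8680295 these means were 6122, 1056 and 653 CPM. The member itself had a mean of 346 CPM over the perinatal libraries.

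On chromosome 8, chr8:49480789-49502599 (minus strand) had 3 and 4.5 counts at E18.5, 4.5 and 7 at P1, and 3.5 and 0 at P7. Its partner with the same listed end, chr8:49452664-49502599, had 6 and 4.5 counts at E18.5, 10 and 3.5 at P1, 6 and 0 at P7, with 4.5 and 7 at P14, and 11.5 and 17 at P30. The 2 circles overlapped in count at E18.5, P1 and P7, and the wider one alone was listed after that. Scaled to library totals, the wider one had means of 770 CPM at E18.5, 396 at P14 and 501 at P30. On chromosome 12, 1 partner, chr12:52744090-52762700 (minus strand), shared its listed end with 2 members. It had 4 and 9.5 counts at E18.5, 7 and 9.5 at P1, 13.5 and 6 at P7, with 6 and 7 at P14, and 9.5 and 9.5 at P30. Scaled to library totals, its mean was 969 CPM at E18.5 and 335 CPM at P30. The wider member, chr12:52724162-52762700, had 7 and 4.5 counts at E18.5 and was at 0 from P1, and the narrower, chr12:52748992-52762700, was at 0 at E18.5 and had 2 and 6 counts at P1 and 0 and 2.5 at P7. These 2 members of 1 locus were therefore listed in different libraries, without overlap.

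At the other shared ends described here, the member was listed in fewer libraries than its partner. The circRNA chr7:130306007-130306391 (plus strand) had 0 and 4 counts at E18.5 and 5.5 and 0 at P1, and its partner chr7:130287263-130306391 was listed in all 10 libraries at 3.5 to 18.5 counts. Scaled to library totals, that partner had a mean of 1646 CPM at E18.5 and 282 CPM at P30. For chr10:116803136-116805044, the member of E18.5 and P7 described above, the partner chr10:116786366-116805044 had 0 and 2.5 counts at E18.5, 2 and 0 at P1, 4.5 and 0 at P7, with 4.5 and 3 at P14, and 2 and 4 at P30. Here the member had the higher count in both E18.5 libraries and the partner alone was listed at P14 and P30. The circRNA chr17:5097573-5127024 (plus strand) had 3.5 and 3 counts at E18.5, 0 and 4 at P1, and 0 at P7. Its partner chr17:5040579-5127024 was at 0 in both E18.5 libraries and had 8.5 and 4.5 counts at P1, 4 and 0 at P7, with 4 and 2.5 at P14, and 4 and 8 at P30. At that end the member alone was listed at E18.5, both circles were listed at P1, and the partner alone was listed after that.

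**Figure D4:**
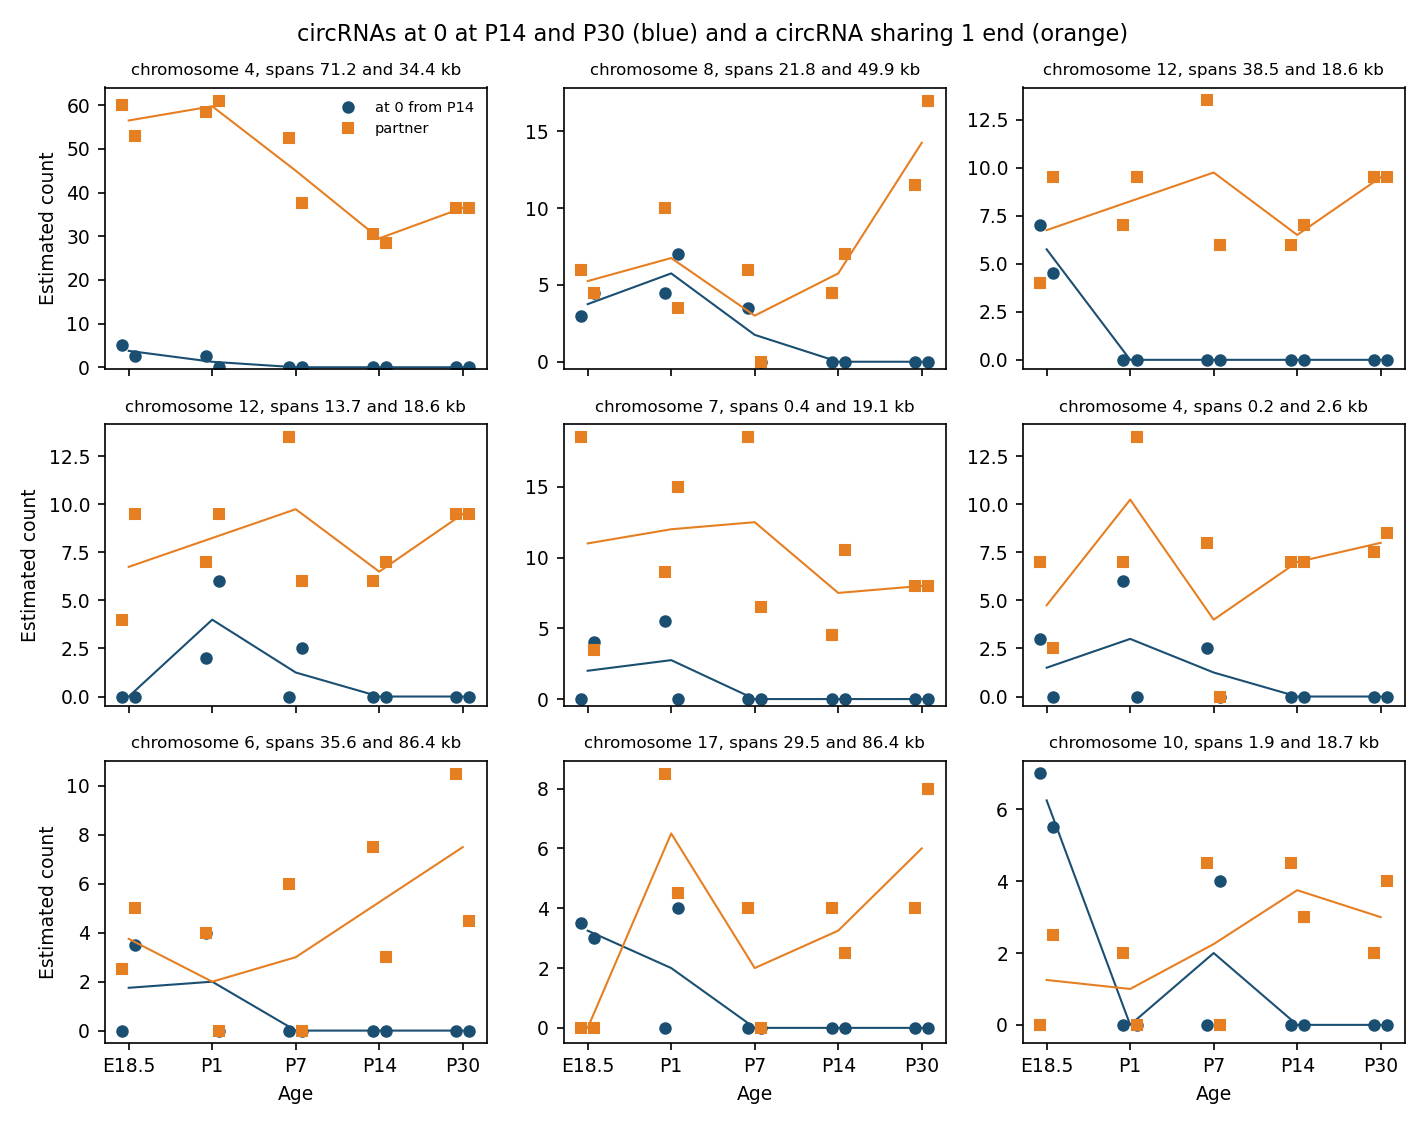
Estimated counts of the 9 members whose partner was above 0 in all 4 later libraries, with that partner, which has 1 back-splice end in common. Points are libraries, some hidden behind others, and lines are the mean of the 2 libraries of an age. The members are at 0 at P14 and P30 by the rule, and the counts are not scaled to library totals.

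Shared ends with a partner that was listed in only some of the later libraries were also seen. The member chr3:26032163-26041634 has the same listed start as chr3:26032163-26032974, which had 12 and 18.5 counts at E18.5, 24 and 15.5 at P1, 20 and 25 at P7, with 4 and 0 at P14, and 0 at P30. That partner had higher counts than the member in every library up to P7, and failed the rule through its 4 counts at P14. In the other direction, chr8:122054948-122070141 (minus strand) had 3 and 3.5 counts at P1 alone, while chr8:122048326-122070141, with the same listed end, was at 0 up to P14 and had 15 and 2.5 counts at P30. The member chr4:149780304-149805702 (plus strand) had 0 and 5 counts at E18.5, 11 and 5 at P1, and 0 and 6.5 at P7. A wider circle from the same start, chr4:149780304-149813577, had 5.5 and 12.5 counts at E18.5, 6.5 and 13.5 at P1, 16.5 and 8 at P7, with 0 and 9.5 at P14, and 6 and 11 at P30.

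Some members lay next to each other. The 2 members chr9:61767418-61772950 and chr9:61772438-61774325, both on the minus strand, overlapped by 512 bases, and the first was listed at E18.5 and P1 while the second was listed at P1 and P7. On the same chromosome, chr9:79935236-79940219 and chr9:79940073-79951571 overlapped by 146 bases. On chromosome 2, chr2:118883016-118898355 ended 4316 bases before chr2:118902671-118907361 began. In all, 6 members shared an end with another member.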

How the data were processed

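The authors deposited 1 table of estimated circRNA counts for the 10 libraries, in multiples of 0.5. Trimmomatic and the build mm9 are named in the submitters' processing notes. For the aligner, the circRNA caller and the origin of fractional values: not given in the sources used here. Columns were matched to labels by name. The members and lists were chosen with earlier results of these data known. Estimated counts as deposited were summed per library, and CPM is the count per 1000000 of that sum. Circles were named in the text when among the 15 members of highest mean perinatal CPM, in all 4 perinatal or both P7 libraries, narrowest or widest, nearest the threshold, or paired at an end with a circRNA in all 4 later libraries, and not all of these are printed. Others were chosen after their values were seen.

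Tests used counts rounded to whole numbers. The filter was filterByExpr, with a minimum count of 10 and a minimum total of 15, TMM gave the scaling, and the model was fitted over all 10 libraries with 1 coefficient per age and 5 residual degrees of freedom by edgeR's quasi-likelihood method (edgeR 4.0.16, R 4.3.3), with Benjamini-Hochberg adjustment and a threshold of 0.05. DESeq2 1.42.0 was an alternative. The p-values measure only the spread between these libraries. Scripts were tested on simulated data. Python 3.11.15, pandas 2.3.3, numpy 2.4.6, scipy 1.17.1 and matplotlib 3.10.9 were used. The table's low counts limit the precision of every value given for a single circRNA. The annotation at hand was of build GRCm38, positions were not converted, and no sequence is shown.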

Additional observations from a re-analysis of the deposited data

How the results depend on the processing

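The number of members followed the strictness of the rule. The 148 became 40 when at least 3 perinatal libraries had to be above 0, 11 when all 4 had to be, 25 with at least 5 counts in 2 libraries, and 52 from E18.5 and P30 alone. The members listed at P7, 51 in all, were 18, 7, 14 and 24 under these rules. Leaving out 1 library at a time gave 85 to 182 members and 30 to 67 listed at P7, where leaving out each P7 library was added after the data were seen. Of the 68 members that shared an end, 40 did so by the listed start, 43 by the listed end and, in a split also added after the data were seen, 30 by the donor. The members' share of counts at P7 stayed below that at E18.5 and P1 in the alternatives tried, between 0.374% and 2.24%, and so did their share of the number of circRNAs above 0, at 2.95%. Each alternative still chose circRNAs for being above 0 in perinatal libraries, so this order is in part built in. With the replicate number as a block in the 9 numbered libraries, 19 members were tested by edgeR and 0 were called. No source says that these numbers pair samples, and the correlation of same-numbered deviations was 0.021. No other setting called a member. A minimum of 10 counts in both libraries of an age, and the fit of E18.5 and P7 alone, left no member to test.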

Other observations

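Low counts also made members hard to tell apart by their profile. In 7 groups, 16 members in all, the members of a group had the same 10 estimated counts as each other, and counting each group once would give 139 profiles.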
